A study of Mus with 12 samples.

Results

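The interleukin-1 (IL-1) and interleukin-18 (IL-18) system in mouse blood was followed through 8 genes of the 25247 in the expression table, picked by gene symbol. No rule on their values was used, but earlier results of these data were known when the genes were chosen. The 8 were the ligand genes Il1b and Il18, the receptor antagonist gene Il1rn, the signalling receptor gene Il1r1, the decoy receptor gene Il1r2, the accessory chain gene Il1rap, and the receptor genes Il18r1 (ligand-binding chain) and Il18rap (accessory chain). All 8 had a single row in the table.

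IL-1β, the product of Il1b, binds IL-1R1, which then takes up the accessory protein IL-1RAP and signals through the adaptor MyD88 and the IRAK kinases. There are several brakes on this step: the antagonist IL-1RN occupies IL-1R1 without signalling, and IL-1R2 binds IL-1β but lacks the signalling domain, so it acts as a decoy. IL-18 is read in a similar way by a pair of chains, IL-18R1 and IL-18RAP, and is neutralised by the binding protein IL-18BP. Both cytokines are made as inactive precursors that caspase-1 cleaves within inflammasomes. In blood, Il1b and Il1r2 are known from neutrophils and monocytes, and the IL-18 receptor chains are best known from T cells and NK cells.

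Female BALB/c mice, aged 6 weeks at the start, gave the blood, which was collected on day 30 and sequenced as 12 libraries in 4 groups of 3. Solvent mice received acetone and olive oil (3:1) on the shaved back and right ear. The other 3 groups were sensitised there with 1% 2,4-dinitrochlorobenzene (DNCB), a hapten that gives an atopic dermatitis-like dermatitis, and challenged with 0.5% DNCB from day 12. DNCB mice received nothing else, and no injection of cell-free solution was described for them. Mice of the scMSC group received 2e6 human umbilical cord mesenchymal stem cells (MSCs) in 100 µL on 4 days from day 13, injected under the skin beside the lesion, while in scivMSC mice 50 µL went under the skin and 50 µL into the tail vein. All MSC mice therefore also carried the DNCB treatment. The labels number the libraries of a group 1 to 3 and do not say how they relate to cages, days or pools, so the p-values measure the spread between these libraries.

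Libraries held between 52.2e6 and 65.1e6 estimated counts, of which haemoglobin genes took 78.4% to 89.0%. Haemoglobin and the erythroid markers identify the tissue as blood. Replicate 2 of scivMSC stood apart, with the highest haemoglobin share, the fewest detected genes (11806 with at least 4 counts) and a TMM factor of 0.330, where TMM is a scaling that sets the bulk of genes equal between libraries. Levels are given as FPKM (fragments per kilobase of transcript per 1e6 fragments), which are scaled by the library total and can be compared between genes. On that scale the median log2 fold change of the 5527 tested genes was 0.06 for DNCB against Solvent, but -0.63 for scMSC and -1.53 for scivMSC against DNCB, -0.59 and -1.47 for scMSC and scivMSC against Solvent, and -0.87 for scivMSC against scMSC. With TMM scaling the 6 medians lay between -0.09 and 0.06, so changes are read against these medians, and for the 8 genes and the pathway genes named below the TMM value is given where it alters a call. A gene was called when edgeR's quasi-likelihood test gave a Benjamini-Hochberg adjusted p under 0.05 over all tested genes and a fold change over 2.

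A filter asked for 1 FPKM or more in 3 or more libraries, and 6 of the 8 genes passed it and were tested. Il1rn and Il1rap passed this filter through their DNCB libraries alone. Il1r1 and Il18 did not pass and were tested only in a fit of all 25247 genes.

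Il1b, Il1rn, Il1r2 and Il1rap had far higher FPKM in blood of DNCB mice than in blood of Solvent mice, while Il1r1 was not called. The ligand gene Il1b was 6.24-fold higher, its antagonist gene Il1rn 6.78-fold and the accessory chain gene Il1rap 6.76-fold, and the decoy receptor gene Il1r2 was 33.0-fold higher, as ratios of mean FPKM (n = 3 and 3). Of the IL-18 receptor, the accessory chain gene Il18rap was 4.04-fold higher while the ligand-binding chain gene Il18r1 was 0.771 of its Solvent level and was not called. In both MSC groups, Il1b, Il1rn, Il1r2, Il1rap and Il18rap were lower than in DNCB blood. Since these are bulk samples, fewer cells of a type and less RNA per cell cannot be told apart in any of these values.

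**Figure D1:**
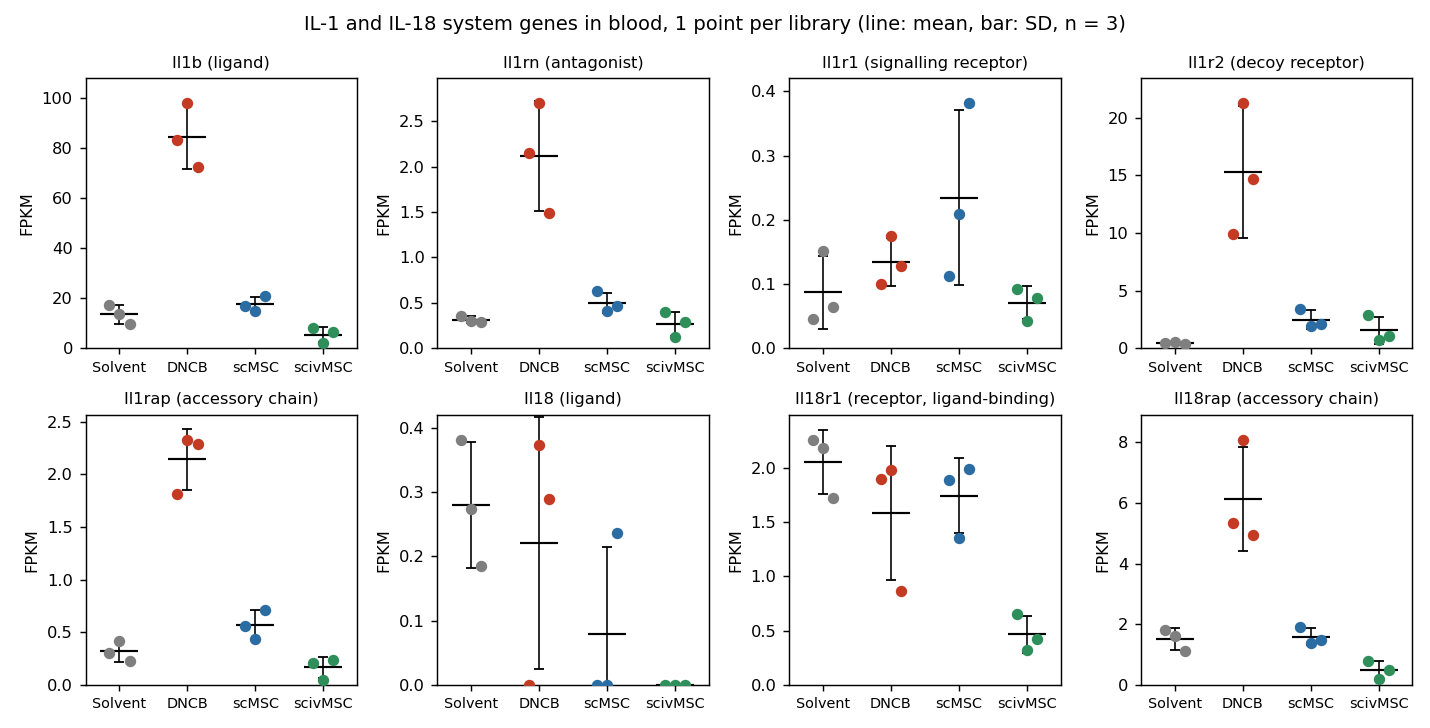
FPKM of the 8 genes of the IL-1 and IL-18 system in each blood library, 1 panel per gene with its own linear axis from 0. Points are libraries, the line is the group mean and the bar its SD (n = 3). Il1b, Il1rn, Il1r2, Il1rap and Il18rap are highest in the 3 DNCB libraries, while Il18r1 is lowest in scivMSC and Il18 is at 0 in 6 libraries.

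Il1b (ENSMUSG00000027398), the gene of IL-1β, lies on the minus strand of chromosome 2 at 129364570 to 129371139 in the coordinates of the deposited table. Its level was 17.3, 13.6 and 9.58 FPKM in the Solvent libraries and 83.1, 97.9 and 72.3 FPKM in the DNCB libraries. It was 16.8, 15 and 20.8 FPKM in scMSC and 7.96, 2.01 and 6.31 FPKM in scivMSC. Il1b was thus by level the leading gene of the system in every group, with DNCB above all other libraries, scMSC overlapping Solvent, and scivMSC below all of them. DNCB exceeded Solvent by 2.64 on the log2 scale (SE 0.405, edgeR adjusted p = 0.000206), and 95.3% of tested genes had a lower fold change. Against DNCB, Il1b fell in both MSC groups, with log2 fold changes of -2.28 in scMSC (SE 0.399, edgeR adjusted p = 0.000852) and -3.96 in scivMSC (SE 0.429, edgeR adjusted p = 4.63e-06). The antisense gene Il1bos, which overlaps Il1b, never held more than 33 counts in a library, against at least 216 for Il1b. Whether the counting used strand is not stated in the sources used here.

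Il18 (ENSMUSG00000039217, chromosome 9, plus strand, 50554827 to 50581840), the gene of the other ligand, was close to the limit of detection. Its estimated counts were 27, 19 and 14 in Solvent and 0, 25 and 20 in DNCB. They were 0, 0 and 15 in scMSC and 0 in all 3 scivMSC libraries. Low values in the table cluster at multiples of 4, so a fragment is worth about 4 counts and a count up to 12 was treated as not above the floor. On this reading 6 of 12 libraries were at the floor, including every scivMSC library. Scaled by library totals and with the floor in place of 0, Il18 was at least 1.42-fold lower in scivMSC than the Solvent mean. By the same rule it was at least 1.13-fold lower than the DNCB mean, although DNCB replicate 1 was itself at 0. TMM factors were 0.330 to 0.751 in scivMSC and 1.128 to 1.872 in Solvent and DNCB, so these bounds do not carry over to TMM scaling. In the fit of all genes Il18 was called lower in scivMSC than in DNCB (edgeR adjusted p = 0.0283) and than in Solvent (edgeR adjusted p = 0.0188), but with TMM scaling neither was called (edgeR adjusted p = 0.136 and 0.112). Without the filter 22.9% of all genes were called lower in scivMSC than in DNCB and 28.2% lower than in Solvent. A change between DNCB and Solvent was not detectable at this depth (edgeR adjusted p = 1). Il1a, the gene of the second IL-1 ligand, had at most 4 counts in any library and was at or under the floor in all 12.

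Il1rn (ENSMUSG00000026981, chromosome 2, plus strand, 24336853 to 24351494) encodes the antagonist that competes with IL-1β for IL-1R1. It was measured at 0.354, 0.296 and 0.285 FPKM in Solvent and at 2.15, 2.70 and 1.49 FPKM in DNCB. The scMSC libraries had 0.624, 0.406 and 0.467 FPKM, and the scivMSC libraries 0.393, 0.122 and 0.284 FPKM. Every DNCB library exceeded every other library, scMSC lay just above Solvent without overlap, and scivMSC overlapped Solvent. The DNCB increase was 2.74 on the log2 scale (SE 0.456, edgeR adjusted p = 0.000402). From the DNCB level Il1rn fell by 2.09 in scMSC (SE 0.444, edgeR adjusted p = 0.00278), and its change in scivMSC was -2.97 (SE 0.462, edgeR adjusted p = 5.03e-05).

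Il1r1 (ENSMUSG00000026072), the signalling receptor gene, was barely present in blood, with 0.0448, 0.152 and 0.0641 FPKM in Solvent and 0.10, 0.174 and 0.128 FPKM in DNCB. The scMSC libraries had 0.113, 0.209 and 0.382 FPKM and the scivMSC libraries 0.0915, 0.0424 and 0.0788 FPKM. Only scivMSC was separated from a neighbour, since its 3 libraries lay below all DNCB and scMSC libraries. In the fit of all genes Il1r1 was not called in any of the 6 comparisons, where its edgeR adjusted p ranged from 0.185 to 0.886, or in the same fit with TMM scaling, where the lowest was 0.068. The interval of the DNCB change was wide, at 0.62 on the log2 scale with an SE of 0.757.

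Il1r2 (ENSMUSG00000026073), the decoy receptor gene, showed the highest fold of DNCB over Solvent among the 6 tested genes. It stood at 0.472, 0.539 and 0.382 FPKM in Solvent and rose to 9.94, 21.3 and 14.7 FPKM in DNCB. Both MSC groups were in between, with 3.4, 1.91 and 2.08 FPKM in scMSC and 2.90, 0.719 and 1.03 FPKM in scivMSC. No library of DNCB, scMSC or scivMSC reached down to the Solvent range, and the MSC groups overlapped each other. The DNCB increase was 5.02 on the log2 scale (SE 0.546, edgeR adjusted p = 8.64e-06), above 99.4% of tested genes. Il1r2 fell by 2.64 from DNCB to scMSC (SE 0.486, edgeR adjusted p = 0.00114), and from DNCB to scivMSC it changed by -3.31 (SE 0.501, edgeR adjusted p = 4.16e-05). In mean FPKM the decoy receptor gene stood at 0.464 against 0.0870 for the signalling receptor gene Il1r1 in Solvent, and at 15.3 against 0.134 in DNCB.

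Il1rap (ENSMUSG00000022514, chromosome 16, plus strand, 26581704 to 26730117) encodes the chain that IL-1R1 needs to signal and that IL-1R2 can also bind. Its level was 0.307, 0.421 and 0.222 FPKM in Solvent and 1.81, 2.33 and 2.29 FPKM in DNCB. It was 0.558, 0.434 and 0.714 FPKM in scMSC and 0.208, 0.0504 and 0.240 FPKM in scivMSC. DNCB and scMSC lay above Solvent without overlap, while scivMSC overlapped Solvent. Il1rap differed between DNCB and Solvent by 2.75 on the log2 scale (SE 0.476, edgeR adjusted p = 0.000556). Its log2 fold change against DNCB was -1.92 in scMSC (SE 0.461, edgeR adjusted p = 0.00589) and -3.68 in scivMSC (SE 0.498, edgeR adjusted p = 1.71e-05).

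Il18r1 (ENSMUSG00000026070), the chain that binds IL-18, was the gene of the tested 6 that did not follow DNCB. It had 2.26, 2.18 and 1.72 FPKM in Solvent and 1.90, 1.98 and 0.868 FPKM in DNCB. The scMSC libraries had 1.89, 1.35 and 1.99 FPKM and the scivMSC libraries 0.649, 0.322 and 0.421 FPKM. Solvent, DNCB and scMSC overlapped, and scivMSC lay below all of them. The DNCB difference was -0.37 on the log2 scale (SE 0.389, edgeR adjusted p = 0.549), which leaves room for a change in either direction. Between DNCB and scivMSC, Il18r1 fell by 1.77 (SE 0.403, edgeR adjusted p = 0.00118), near the median of -1.53 over all tested genes, and with TMM scaling the value was -0.16 and was not called (edgeR adjusted p = 0.598).

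Il18rap (ENSMUSG00000026068), the partner chain that the IL-18 receptor needs to signal, had 1.80, 1.62 and 1.12 FPKM in Solvent and 5.34, 8.09 and 4.94 FPKM in DNCB. It had 1.91, 1.39 and 1.48 FPKM in scMSC and 0.791, 0.179 and 0.483 FPKM in scivMSC. DNCB was above all other libraries, scMSC overlapped Solvent, and scivMSC was below all of them. The DNCB increase was 2.02 on the log2 scale (SE 0.432, edgeR adjusted p = 0.00299). Both MSC groups were lower than DNCB, at -1.95 in scMSC (SE 0.431, edgeR adjusted p = 0.00354) and -3.65 in scivMSC (SE 0.464, edgeR adjusted p = 1.1e-05).

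The receptor genes Il1r2, Il1r1, Il18r1 and Il18rap are neighbours in the genome. They lie on the plus strand of chromosome 1 in a stretch of 477.6 kb, from 40074079 to 40551705, together with Il1rl2 (IL-36 receptor) and Il1rl1 (ST2, the IL-33 receptor), and no other protein-coding row of the table lies between them. Il1r2 spans 40074079 to 40125231, Il1r1 spans 40225080 to 40317257, Il18r1 spans 40465552 to 40500854 and Il18rap spans 40515362 to 40551705. The genes at the ends of the stretch, Il1r2 and Il18rap, were called higher in DNCB. Of those between, Il18r1 was not called, and Il1r1, Il1rl2 (mean 0.195 FPKM in Solvent and 0.0524 FPKM in DNCB) and Il1rl1 (0.204 and 0.258 FPKM) stayed under the filter and were not called in the fit of all genes (edgeR adjusted p = 0.725, 0.339 and 0.876). The noncoding rows Gm16894 and Gm37347, which overlap Il1r2, held at most 7 and 40 counts in a library.

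**Figure D2:**
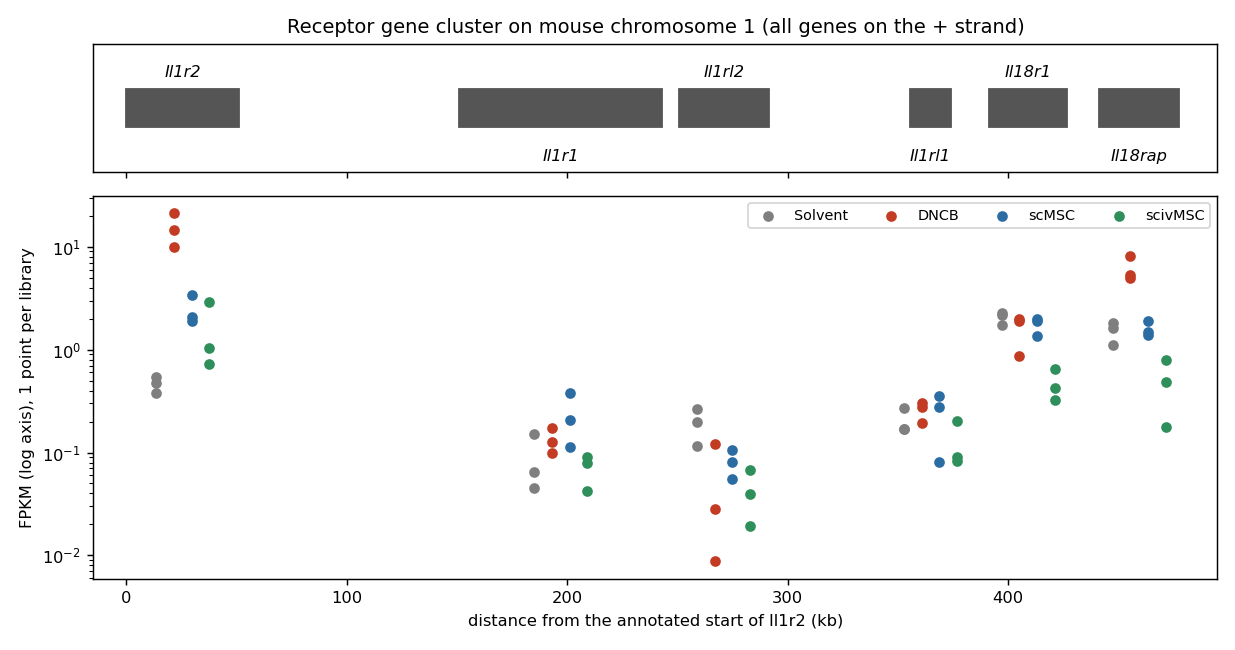
The chromosome 1 stretch with 6 receptor genes (boxes, to scale, in kb from the start of Il1r2) above the FPKM of each gene in each library (log axis, 1 point per library, coloured by group and set slightly apart within a gene). Il1r2 at one end and Il18rap at the other are highest in DNCB, whereas Il1r1, Il1rl2 and Il1rl1 stay below 0.4 FPKM in all 12 libraries and Il18r1 overlaps between Solvent and DNCB.

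Taking the comparisons in turn, DNCB against Solvent gave 5 genes called higher and 0 called lower, where 15.6% of all tested genes were called higher and 4.87% lower (16.1% and 11.5% with TMM scaling). At an unadjusted p under 0.05 edgeR also found 0 of the 6 lower. The 5 were Il1b, Il1rn, Il1r2, Il1rap and Il18rap, and 5 were called under each alternative tried. Their groups did not overlap, as was so for 41.5% of tested genes, and for 22.5% of all genes without the filter. Because Il1rn and Il1rap passed the filter through DNCB, the count over tested genes leans toward this direction, and in the fit of all 25247 genes the count was 5 of 8 against 3.41% called higher.

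The scMSC comparison with DNCB sets DNCB-treated mice given cells under the skin against DNCB mice with no described injection. Effects of the cells and of their injection cannot be told apart in it, or in the comparison of scivMSC with DNCB. Il1b, Il1rn, Il1r2, Il1rap and Il18rap were called lower, 5 genes where 24.9% of tested genes were called lower (12.3% with TMM scaling). Because Il1rn and Il1rap passed the filter through DNCB, this count too leans toward its direction. In the fit of all 25247 genes 5 of 8 were called lower, against 4.65% of all genes. All 5 lay below the median change of tested genes, with differences from it of -1.65 for Il1b, -1.46 for Il1rn, -2.01 for Il1r2, -1.29 for Il1rap and -1.32 for Il18rap on the log2 scale. Il18r1 differed by 0.12 (SE 0.389, edgeR adjusted p = 0.824). With TMM scaling the 5 calls remained, with values of -1.59 for Il1b, -1.39 for Il1rn, -1.95 for Il1r2, -1.25 for Il1rap and -1.24 for Il18rap.

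When the cells were split between skin and vein, Il1b, Il1rn, Il1r2, Il1rap, Il18r1 and Il18rap were called lower than in DNCB, 6 genes where 62.0% of tested genes were called lower (18.9% with TMM scaling). A call in this comparison therefore says little by itself. The filter favoured lower values for Il1rn and Il1rap here as well. In the fit of all genes 7 of 8 were called lower, against 22.9% of all genes, and 5 of 8 with TMM scaling. With TMM scaling Il1b was lower by -2.46, Il1rn by -1.43, Il1r2 by -1.84, Il1rap by -2.17 and Il18rap by -2.16 on the log2 scale, all called, and Il18r1 was not. Both MSC comparisons share the 3 DNCB libraries, so they are not independent of each other.

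**Figure D3:**
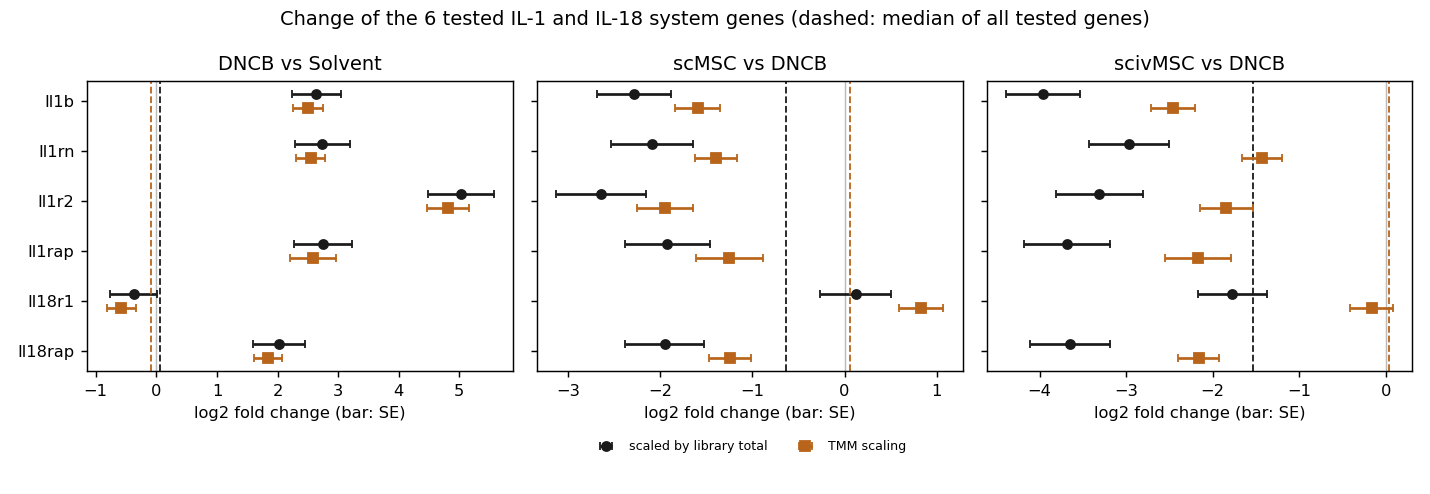
Log2 fold change and SE of the 6 tested genes in 3 comparisons, with libraries scaled by their totals (black circles) or by TMM (orange squares), and dashed lines at the median of all tested genes under each scaling. Il1b, Il1rn, Il1r2, Il1rap and Il18rap lie more than 1 log2 unit from the median of their scaling in all 3 panels, and Il18r1 lies within 1 of it.

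Whether the genes came back to the Solvent level was read from the comparisons of the MSC groups with Solvent. In scMSC blood Il1r2 was called higher than in Solvent, by 2.37 on the log2 scale (SE 0.492, edgeR adjusted p = 0.0382), and it was the single called gene of the 6, where 0.326% of tested genes were called higher (7.29% with TMM scaling). The call was lost with a replicate block (2.33, edgeR adjusted p = 0.0598) and in 8 of 12 fits that each dropped a library. Without Solvent replicate 1, 2 or 3, without scMSC replicate 1, 2 or 3, or without DNCB replicate 1 or 3, the Il1r2 value lay between 2.07 and 2.53 with edgeR adjusted p from 0.0515 to 0.142. With TMM scaling it was 2.86 (edgeR adjusted p = 0.000456). Il1b differed from Solvent by 0.36 (edgeR adjusted p = 0.497), Il18rap by 0.07 (edgeR adjusted p = 0.919) and Il18r1 by -0.25 (edgeR adjusted p = 0.655), where the median of tested genes was -0.59. With TMM scaling the values were 0.92 for Il1b, 0.60 for Il18rap and 0.26 for Il18r1, and none was called. Il1b was called in 1 of 21 alternatives, over which its value ran from 0.17 to 1.04. How near Il1b came to the Solvent level therefore rests on the scaling. Il1rn and Il1rap differed by 0.65 and 0.83 and were not called, but with TMM scaling they were, at 1.16 (edgeR adjusted p = 0.00673) and 1.32 (edgeR adjusted p = 0.031).

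In scivMSC blood Il1r2 was again called higher than in Solvent, by 1.71 (SE 0.484, edgeR adjusted p = 0.0058), where 2.59% of tested genes were called higher (22.4% with TMM scaling). With TMM scaling the value was 2.98 (edgeR adjusted p = 2.62e-05). Without scivMSC replicate 1, the highest of its group, the Il1r2 value was 0.88 and the call was lost (edgeR adjusted p = 0.0556). Il1b, Il18r1 and Il18rap were called lower, by -1.31, -2.15 and -1.64, where 59.2% of tested genes were called lower (13.4% with TMM scaling). The Il1b call was lost without scivMSC replicate 2, at -0.92. With TMM scaling Il1b stood at 0.04, Il18r1 at -0.74 and Il18rap at -0.32, and none was called. Il1rn stood at -0.23 (edgeR adjusted p = 0.649) and turned to 1.12 with TMM scaling, where it was called higher (edgeR adjusted p = 0.00167).

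Between the MSC routes, Il1b, Il1rap, Il18r1 and Il18rap were called lower in scivMSC than in scMSC, by -1.68, -1.76, -1.90 and -1.70 on the log2 scale (edgeR adjusted p = 0.0114, 0.0156, 0.0101 and 0.0138), where 30.4% of tested genes were called lower (4.92% with TMM scaling). Il1rn and Il1r2 were not called, at -0.88 and -0.66 (edgeR adjusted p = 0.121 and 0.27). The Il1rap call was lost without scMSC replicate 3 (-1.57, edgeR adjusted p = 0.0528) and that of Il18rap without scMSC replicate 1 (-1.56, edgeR adjusted p = 0.0522), while without scivMSC replicate 1 Il1rn (-1.28) and Il1r2 (-1.49) were called as well. With TMM scaling edgeR called none of the 6, although 4 had an unadjusted p under 0.05, with Il1b at -0.87, Il1rap at -0.92, Il18r1 at -1.0 and Il18rap at -0.92. Each of these 4 then missed the fold threshold, and Il1rap also the adjusted p. With library-total scaling but the 6 libraries of this comparison alone, 0 of the 6 were called, where 4 of all tested genes were. Whether the routes differ for these genes therefore rests on the scaling and on the libraries that enter the fit.

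Ratios of 2 genes within a library do not depend on how libraries are scaled, so antagonist, decoy and ligand were also compared in this way. For each of 4 ratios of FPKM, an exact permutation test of the F statistic was run over the 15400 ways in which 12 libraries fall into 4 groups of 3, with Benjamini-Hochberg adjustment over the 4 ratios. The smallest p this test can give is 6.49e-05, while 3 libraries against 3 cannot go below an exact two-sided p of 0.1.

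The antagonist gene kept pace with the ligand gene through the DNCB treatment. The ratio of Il1rn to Il1b was 0.0204, 0.0217 and 0.0298 in Solvent and 0.0259, 0.0276 and 0.0206 in DNCB, which overlapped (1.04-fold, exact p = 0.9). It was 0.0372, 0.0271 and 0.0224 in scMSC and 0.0494, 0.0607 and 0.0450 in scivMSC. The scivMSC libraries had the 3 highest ratios, 2.17-fold above Solvent and 2.09-fold above DNCB in geometric mean, and the 4 groups differed (exact permutation p = 0.0108, adjusted 0.0108).

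The decoy receptor gene gained on the ligand gene. The ratio of Il1r2 to Il1b was 0.0272, 0.0395 and 0.0399 in Solvent and 0.12, 0.218 and 0.204 in DNCB. It remained above the Solvent range in the MSC groups, at 0.202, 0.128 and 0.0999 in scMSC and 0.364, 0.358 and 0.163 in scivMSC. Solvent lay below the other 3 groups without overlap, by 4.98-fold against DNCB, 3.92-fold against scMSC and 7.91-fold against scivMSC, each with an exact p of 0.1, and those 3 groups overlapped one another. Over the 4 groups the exact permutation p was 0.00305 (adjusted 0.00805). In the MSC groups the decoy receptor gene and the ligand gene were thus both lower than in DNCB, but the ratio between them was not back at the Solvent value.

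The same held for the decoy receptor gene against the accessory chain gene. The ratio of Il1r2 to Il1rap was 1.54, 1.28 and 1.72 in Solvent and 5.48, 9.17 and 6.45 in DNCB. It was 6.09, 4.40 and 2.92 in scMSC and 13.9, 14.3 and 4.28 in scivMSC. Solvent again lay below all other libraries, by 4.58-fold against DNCB, 2.85-fold against scMSC and 6.31-fold against scivMSC (exact permutation p over the 4 groups = 0.00403, adjusted 0.00805).

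The chains of the IL-18 receptor parted in DNCB blood. The ratio of Il18r1 to Il18rap was 1.25, 1.34 and 1.54 in Solvent but 0.356, 0.245 and 0.176 in DNCB, a 5.53-fold difference without overlap. It was 0.988, 0.972 and 1.34 in scMSC and 0.819, 1.79 and 0.873 in scivMSC, and both groups overlapped Solvent (1.26-fold each, exact p = 0.2 and 0.4). The DNCB libraries thus stood alone below 0.4, and the 4 groups differed (exact permutation p = 0.00877, adjusted 0.0108).

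**Figure D4:**
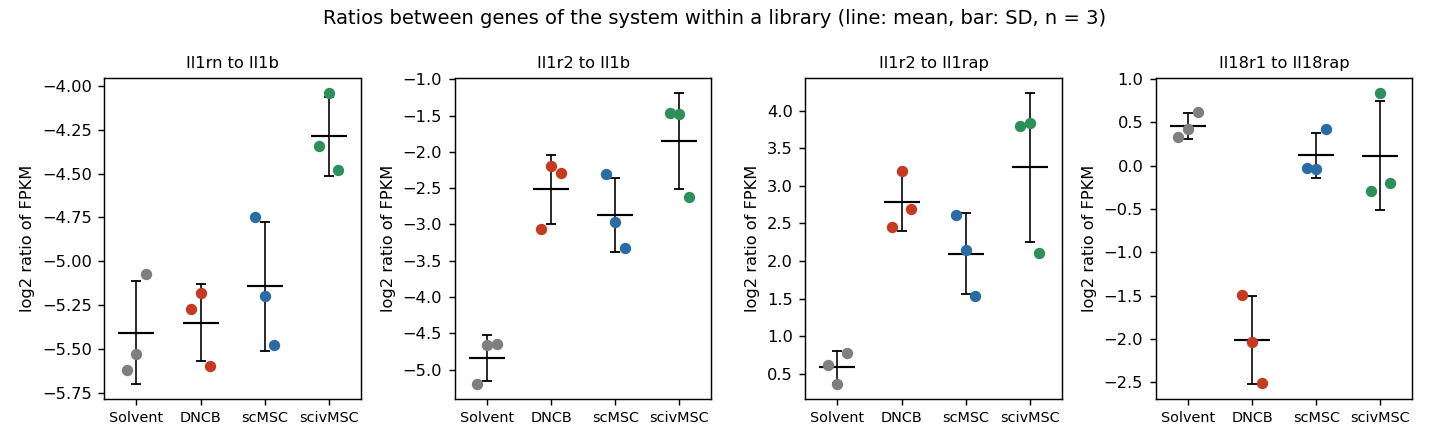
Log2 ratios of FPKM between genes of the IL-1 and IL-18 system within each library (points), with the group mean (line) and SD (bar, n = 3). Solvent is lowest for both Il1r2 ratios, scivMSC is highest for Il1rn to Il1b, and DNCB is lowest for Il18r1 to Il18rap.

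Neutrophil markers moved along with these genes, while markers of monocytes and of eosinophils and basophils did so in part. All 11 neutrophil markers were called higher in DNCB than in Solvent (median log2 fold change 5.08), where 15.6% of tested genes were. All 11 were called lower in scMSC and scivMSC than in DNCB (medians -3.65 and -4.22), where 24.9% and 62.0% of tested genes were. With TMM scaling all 11 calls remained, and the 3 medians were 4.90, -2.94 and -2.69. The order of the MSC groups therefore rests on the scaling. The summed neutrophil level was 221.2 to 446.1 FPKM in Solvent, 7043 to 11049 FPKM in DNCB, 581.7 to 723.6 FPKM in scMSC and 248.8 to 747.3 FPKM in scivMSC, and none of the 11 was at 0 in any group. Of the 8 monocyte markers 5 were tested, among them Fn1, which would not have passed the filter without its DNCB libraries. In DNCB 2 were called higher than in Solvent, against 15.6% of tested genes. Against DNCB 3 were called lower in scMSC and 4 in scivMSC, where 24.9% and 62.0% of tested genes were. With TMM scaling 3 were called lower in scMSC, and 2 lower and 1 higher in scivMSC. The 8 summed to 7.78 to 20.3 FPKM in Solvent, 23.9 to 43.3 FPKM in DNCB, 12.5 to 12.7 FPKM in scMSC and 9.15 to 10.1 FPKM in scivMSC. The 8 eosinophil and basophil markers, of which 3 were tested and 1 was called higher in DNCB, summed to 1.56 to 2.55 FPKM in Solvent, 7.13 to 8.10 FPKM in DNCB, 2.39 to 5.80 FPKM in scMSC and 1.96 to 6.03 FPKM in scivMSC. The 3 tested did not all move together, since 1 was called higher and 2 lower in scivMSC than in DNCB. Of the 5527 tested genes 79 were called higher and 62.0% lower there. With TMM scaling 1 of the 3 was called higher and 1 lower, against 20.6% and 18.9%. Mcpt8 and Cpa3 would not have passed the filter without their DNCB libraries. Prg2 reached 1 FPKM in 0 DNCB libraries and 5 others, Mcpt8 in 3 and 1, and Cpa3 in 3 and 0. Epx, an eosinophil marker gene, was at 0 in all 3 Solvent libraries. The part of these cell markers in the results on Il1b, Il1rn, Il1r2, Il1rap and Il18rap was not tested.

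Set against the neutrophil sum, the decoy receptor gene and the ligand gene behaved differently. Per 1000 FPKM of neutrophil markers, Il1r2 had 1.2 to 1.73 FPKM in Solvent and 1.41 to 2.07 FPKM in DNCB, which overlapped, and 2.97 to 4.70 FPKM in scMSC and 2.27 to 3.88 FPKM in scivMSC, which lay above both. Il1b had 30.6 to 44.3 FPKM in Solvent and 23.2 to 29.7 FPKM in scMSC, against 8.86 to 11.8 FPKM in DNCB and 8.07 to 13.9 FPKM in scivMSC. Il1rn had 0.663 to 1.29 FPKM in Solvent and 0.209 to 0.305 FPKM in DNCB, and Il1rap 0.783 to 1.01 and 0.211 to 0.320 FPKM. Il18rap had 3.64 to 5.04 FPKM in Solvent and 0.693 to 0.758 FPKM in DNCB, so its increase in DNCB blood was smaller than that of the neutrophil sum.

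Lymphocyte markers, among them those of the T and NK cells best known for the IL-18 receptor, went the other way in DNCB blood. T cell markers were called lower than in Solvent for 7 of 8 genes, and B cell markers for 8 of 8, where 4.87% of tested genes were called lower (11.5% with TMM scaling). The summed T cell level was 46.9 to 84.1 FPKM in Solvent, 17.7 to 29.0 FPKM in DNCB, 25.3 to 35.7 FPKM in scMSC and 6.35 to 16.4 FPKM in scivMSC. The B cell sum was 83.4 to 255.8 FPKM in Solvent, 25.8 to 65.3 FPKM in DNCB, 25.6 to 38.8 FPKM in scMSC and 8.83 to 17.0 FPKM in scivMSC. The NK cell sum was 24.9 to 30.3 FPKM in Solvent, 8.79 to 12.3 FPKM in DNCB, 4.50 to 13 FPKM in scMSC and 4.03 to 11.8 FPKM in scivMSC, and of its 3 tested markers 2 were called lower in DNCB (3 with TMM scaling). Against DNCB the median log2 fold change of T cell markers was 0.57 in scMSC and -0.90 in scivMSC, but 1.25 and 0.70 with TMM scaling. For B cell markers it was -0.28 and -1.77, but 0.47 and -0.12 with TMM scaling, and for NK cell markers -0.36 and -1.29, but 0.28 and 0.10. The lower lymphocyte sums of scivMSC than of DNCB therefore rest on the scaling. Il18r1 was not called in DNCB blood, and Il18rap rose there. The part of these cells in either result was not tested.

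The rest of the pathway was read from a list of 34 further genes, of which 28 had a row in the table and 13 passed the filter. Of these 13, 6 passed only through their DNCB libraries, namely Il18bp, Irak3, Irak4, Nlrp3, Casp1 and Casp4, so counts over the 13 lean toward DNCB. In the fit of all genes 5 of 28 were called higher in DNCB than in Solvent, where 3.41% of all genes were, and 0 were called lower. Values lay above 0 for 14 of the 28 and below 0 for the other 14, with a median of -0.04 on the log2 scale against -0.26 for all genes. The 5 were Il18bp, Myd88, Irak4, Nlrp3 and Casp4. Among the 13, 6 were called higher and 0 lower, against 15.6% and 4.87% of tested genes, and with TMM scaling 7 were called higher and 1 lower.

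Among binding proteins, Il18bp, the IL-18 neutraliser, rose by 2.26 (SE 0.610, edgeR adjusted p = 0.0134), from 0.267, 0.352 and 0.137 FPKM in Solvent to 1.27, 1.36 and 1.02 FPKM in DNCB, a call that was lost without Solvent replicate 3 (1.97, edgeR adjusted p = 0.0684). The inhibitory receptor gene Sigirr differed by -1.01 and was not called (edgeR adjusted p = 0.234), but with TMM scaling it was called lower (-1.15, edgeR adjusted p = 0.0189). Of the signalling genes, the adaptor gene Myd88 rose by 2.47 (SE 0.430, edgeR adjusted p = 0.000584), the kinase gene Irak4 by 1.54 (SE 0.417, edgeR adjusted p = 0.0138) and Irak3, an inhibitory IRAK, by 1.36 (SE 0.461, edgeR adjusted p = 0.0449). In the fit of all genes 2 of 14 signalling genes were called, since Irak3 was not (edgeR adjusted p = 0.138), and 7 lay above 0 and 7 below. The Irak4 call was lost without Solvent replicate 2 (1.41), Solvent replicate 3 (1.45) or DNCB replicate 2 (1.28). The Irak3 call was lost in 9 of 12 leave-one-out fits, where its value lay between 1.07 and 1.54, and held only without Solvent replicate 1 or scivMSC replicate 1 or 2. Of the processing genes, the inflammasome sensor gene Nlrp3 rose by 2.08 (SE 0.443, edgeR adjusted p = 0.00292) and the inflammatory caspase gene Casp4 by 2.46 (SE 0.454, edgeR adjusted p = 0.000923). Casp1, whose product cleaves the precursors of both cytokines, differed by 1.28 (SE 0.589, edgeR adjusted p = 0.137) and was not called. It was called in 5 of 21 alternatives, at 1.15 with TMM scaling, 1.18 with DESeq2, 1.42 with TMM scaling without the filter, and 1.28 with the 6 libraries alone or without scivMSC replicate 1, with adjusted p between 0.00561 and 0.0283.

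In scMSC against DNCB, 8 of the 28 pathway genes were called lower in the fit of all genes, where 4.65% of all genes were, and 0 were called higher, with a median of -0.76 against -0.33. The count among the 13 was also 8, against 24.9% of tested genes, and 6 with TMM scaling, against 12.3%. On the log2 scale Casp4 changed by -2.56, Casp1 by -2.48, Il18bp by -2.47, Myd88 by -2.42, Nlrp3 by -1.85 and Irak4 by -1.69 (edgeR adjusted p = 0.000946, 0.00713, 0.00723, 0.000935, 0.00561 and 0.00717), and all 6 were also called with TMM scaling. Gsdmd and Tab2 were the other called genes, at -1.43 and -1.35, and are named here after their values were seen. With TMM scaling they stood at -0.73 and -0.63 and were not called. Sigirr, Irak1, Tollip and Chuk were called under neither scaling.

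In scivMSC against DNCB 9 of the 13 were called lower, which is near the 62.0% of all tested genes called lower, and in the fit of all genes 16 of 28 were, against 22.9%. Among them were Myd88 at -4.21, Casp4 at -3.82, Il18bp at -3.50, Casp1 at -3.47 and Nlrp3 at -3.30. With TMM scaling 7 were called lower, against 18.9% of tested genes, and 3 were called higher, against 20.6%. The 3 were the kinase gene Irak1 at 1.2, Tollip, an adaptor gene, at 1.25 and Chuk, an IκB kinase gene, at 1.06, which had stood at -0.35, -0.42 and -0.49 and were not called with library-total scaling. Irak3 and Tab2, lower by -1.91 and -1.90 with library-total scaling, stood at -0.27 and -0.35 with TMM scaling and were not called. For Irak1, Tollip and Chuk both the direction and the call therefore rest on the scaling.

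**Figure D5:**
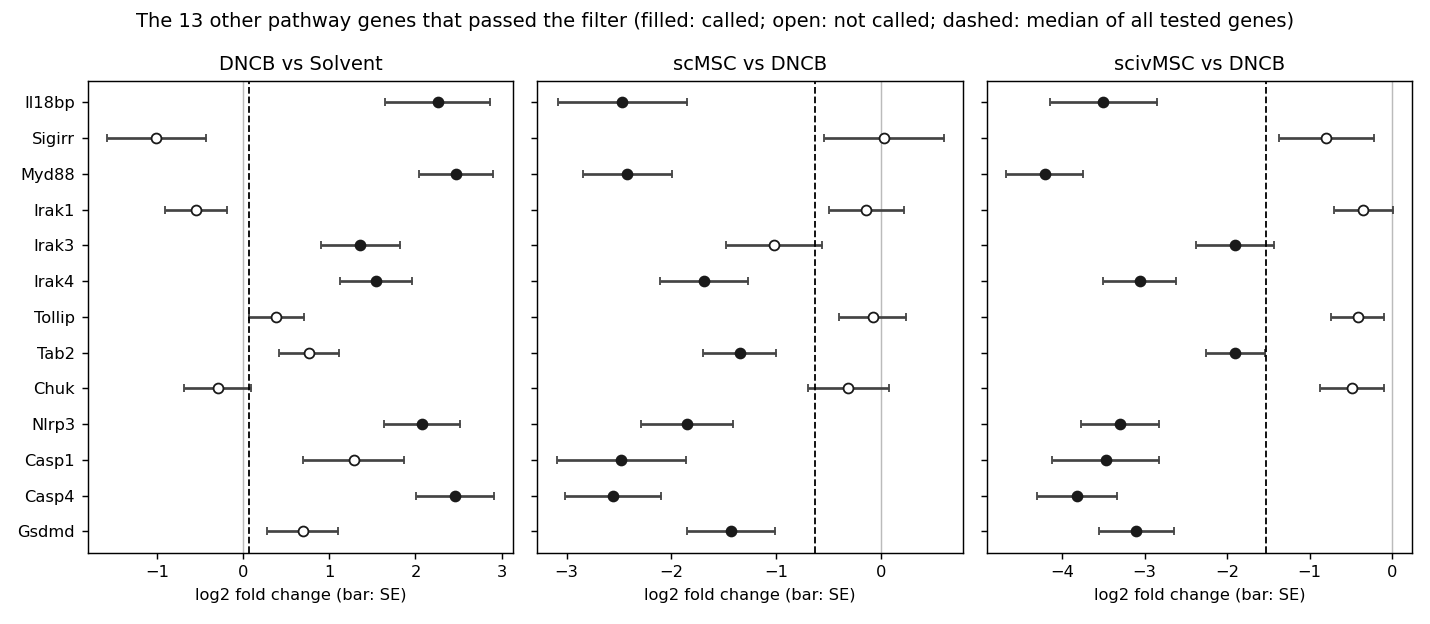
Log2 fold change and SE (bars) of the 13 tested pathway genes in 3 comparisons with libraries scaled by their totals, filled where called, with a dashed line at the median of all tested genes. On this scaling Myd88, Casp4, Il18bp, Nlrp3 and Irak4 are called in all 3 panels and Sigirr, Irak1, Tollip and Chuk in none, whereas with TMM scaling Sigirr is called lower in DNCB against Solvent, and Irak1, Tollip and Chuk are called higher in scivMSC against DNCB.

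Genes whose levels ran most alike to these were found by Pearson's correlation of log2(FPKM + 1) over the 12 libraries, given as a description, since libraries of a group share their treatment and DNCB stands apart from the rest. For Il1b they were Myo1f (r = 0.995), Csf3r (r = 0.995), the receptor gene of granulocyte colony-stimulating factor, and Kdm6b (r = 0.994). Csf3r ran from 22 FPKM in Solvent to 197.5 FPKM in DNCB, 36.3 FPKM in scMSC and 10.5 FPKM in scivMSC. For Il1r2 they were Mmp8 (r = 0.986), the gene of neutrophil collagenase, Dgat2 (r = 0.977) and Asprv1 (r = 0.977), and Mmp8 ran from 1.72 FPKM in Solvent to 90.6 FPKM in DNCB, 6.56 FPKM in scMSC and 5.96 FPKM in scivMSC. For Il18r1 they were Slc2a4rg-ps (r = 0.963), Frmd8 (r = 0.957) and Mbd3 (r = 0.957). The pattern of Il18r1 was not like that of the rest of the system, with r = 0.0949 against Il1r2, 0.309 against Il1rn, 0.541 against Il1b and 0.534 against its partner chain gene Il18rap. No such genes are named for Il18, whose values lay at the floor in 6 libraries.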

How the data were processed

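Blood RNA of 12 libraries was analysed from 1 deposited table of 25247 genes. Its 24 value columns hold estimated counts and FPKM values, 1 of each per library. The submitters' processing notes name HISAT2 2.0, StringTie 1.3.0, Bowtie 0.12.2 and the build mm8, without their roles. Coordinates are the table's own. Of 21465 genes matched by symbol and chromosome to RefSeq GRCm38.p6, 18719 (87.2%) start within 1000 bases of it, so they need not be mm8 positions. The deposited FPKM values are per kilobase and per 1e6 fragments with haemoglobin included. The deposited estimated counts are whole numbers, and 29.0% of values from 1 to 12 equal 4, so 12 counts, 3 fragments at 4 counts each, were taken as the floor of a library. Floors cover counting error only. 

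The counts were tested with edgeR 4.0.16 (R 4.3.3), by its quasi-likelihood test with Benjamini-Hochberg adjustment, in a single fit of 4 group means, scaled by library totals, over the 5527 genes that reached 1 FPKM in 3 or more libraries. SEs were derived from the fold change and the F statistic. Ratios used exact permutation tests. The scripts were tested on simulated data. Alternatives were TMM scaling, haemoglobin left out, DESeq2 1.42.0, limma 3.58.1 on log2(FPKM + 1) and log2(FPKM + 0.1), no filter, the 6 libraries of a comparison alone, a replicate block and leaving out each library. TMM scaling without the filter was chosen after seeing the data. The 8 genes, the pathway list and the marker lists of neutrophils, monocytes, eosinophils and basophils, T cells, B cells and NK cells were chosen with earlier results of these data known. By rule, pathway genes were named when called in DNCB against Solvent or scMSC against DNCB, up to 6 in each direction, and the 3 genes most alike to Il1b, Il1r2 and Il18r1 were named. A ratio of Il18 to Il1b was planned and could not be computed, since Il18 was at 0 in 6 libraries. No sequences are shown, since none were used here.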

Additional observations from a re-analysis of the deposited data

Results flagged for a closer look

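In the main fit 4 genes differed between the 2 MSC routes when tested as scivMSC against scMSC, which both share the DNCB treatment. Of all tested genes, 30.4% were called lower in this comparison. The effect in scivMSC minus that in scMSC was -1.68 on the log2 scale for Il1b, -1.76 for Il1rap, -1.90 for Il18r1 and -1.70 for Il18rap, each past the threshold by edgeR's quasi-likelihood test. With TMM scaling the differences were -0.87 for Il1b, -0.92 for Il1rap, -1.0 for Il18r1 and -0.92 for Il18rap, and none was called. With the 6 libraries of the comparison alone, 0 of the 6 tested members and 4 of all tested genes were called. The median of all tested genes was -0.87 before and -0.01 after TMM scaling.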

How the results depend on the processing

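For DNCB against Solvent, 5 genes were called higher under every one of the alternatives, and for scMSC against DNCB 5 were called lower under every one. In the main fit 15.6% of tested genes were called higher in the first comparison and 24.9% lower in the second. The exact tests of the 4 ratios kept an adjusted p under 0.05 with 1 added to the counts and without any 1 library. The genes called between scivMSC and scMSC were 4, but 0 with TMM scaling, DESeq2 or the 6 libraries alone, and 1 with limma at a pseudocount of 1 or TMM scaling without the filter. Over all tested genes 1682 were called lower there, but 272 with TMM scaling, 276 with DESeq2 and 4 with the 6 libraries alone. For scMSC against Solvent the count was 1, but 3 with TMM scaling or DESeq2, 4 with TMM scaling without the filter, and between 0 and 1 when 1 library was left out. All of these were higher. Over all tested genes 18 were called higher, but 403 with TMM scaling and 451 with DESeq2, and 668 of 25247 with TMM scaling without the filter. For scivMSC against Solvent the member count was 4 (1 higher and 3 lower), but 2 (both higher) with TMM scaling, DESeq2 or TMM scaling without the filter, 2 (both lower) with limma at a pseudocount of 1, 3 with haemoglobin left out, 5 without the filter, and between 3 and 5 when 1 library was left out. Of all tested genes 2.59% were called higher and 59.2% lower, but 22.4% and 13.4% with TMM scaling. TMM scaling without the filter was chosen after seeing the data, and where a cause is not plain from the setting it was not tested.

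Directions that turned were all in values near 0 or in comparisons where the medians shifted. With TMM scaling, DESeq2 and TMM scaling without the filter, Il1r2 in scivMSC against scMSC went to 0.12, 0.14 and 0.05, Il18r1 in scMSC against Solvent to 0.26, 0.25 and 0.38, and in scivMSC against Solvent Il1b went to 0.04, 0.06 and 0.11, Il1rn to 1.12, 1.15 and 1.19 and Il1rap to 0.40, 0.41 and 0.47. Il1rn there was also 0.12 with haemoglobin left out. When 1 library was left out, it ranged from -0.62 to 0.12, the last without scivMSC replicate 2, Il18r1 in scMSC against DNCB from -0.17 without DNCB replicate 3 to 0.32, and Il18rap in scMSC against Solvent from -0.11 without Solvent replicate 3 to 0.21, with -0.08 without scMSC replicate 1. In all, of 756 alternative values of single genes, 681 kept their direction and their side of the threshold, 44 lost a call, 11 gained one and 20 turned.

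The libraries of different groups share a replicate number in the labels. The deviations of same-numbered libraries correlated from -0.200 to 0.173 and above 0.1 in 3 of 18 pairs. A library correlated best with its own number in 20 of 36 cases, each among 3 candidates, more than an even spread over the 3 would give. The labels state no pairing, so the main fit did not take the numbers as pairs, but a link between same-numbered libraries was not excluded. With a replicate block the count for scMSC against Solvent was 0 in place of 1, as the Il1r2 call was lost, and no other call on the 6 genes changed. Depth limited Il18 and Il1r1.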
